A study of Mus musculus with 20 samples.

Results

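The mitochondrially encoded RNAs are the transcripts of the small circular genome that mitochondria keep for themselves. They were taken as every gene whose name begins with MT- in the table of human genes from humanized mouse livers, or with mt- in the table of mouse genes from wild type (WT) livers. This rule gave 37 of 60607 human genes and 37 of 55335 mouse genes. In each species these were 13 mRNA genes, 2 ribosomal RNA (rRNA) genes and 22 transfer RNA (tRNA) genes, and the rRNA genes were kept apart from the mRNA genes throughout.

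Mitochondrial DNA is read by its own RNA polymerase into long RNAs that cover many genes at once, from the heavy and from the light strand. The tRNAs lie between most of the other genes, and cutting them out releases the rRNAs and mRNAs, so the steady level of each RNA depends largely on how long it lasts after the cut. The rRNAs build the mitochondrial ribosome, and the mRNAs encode core subunits of respiratory complexes I, III, IV and V, which work together with subunits from nuclear genes. HuR, the product of ELAVL1, binds AU- and U-rich stretches of RNA made in the nucleus and is known for stabilizing mRNAs.

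Humanized mice were TK-NOG mice, immune-deficient NOG animals in which a herpes simplex virus thymidine kinase, driven by a mouse albumin promoter, lets ganciclovir (GCV) kill the host's own hepatocytes. They received 25 mg/kg GCV at 8 to 9 weeks of age and then 1000000 cryopreserved primary human hepatocytes, and were used 8 to 12 weeks later if serum human albumin was above 0.5 mg/ml. Their livers remain chimeric, with mouse cells of other kinds and mouse hepatocytes that survived, and only human genes are listed in their table. WT mice were male C57BL/6 animals bought at 8 weeks and acclimatized for 10 to 14 days, with no transplant. Every mouse, controls included, carried an adenovirus given intravenously at 2000000000 pfu: 4 humanized and 6 WT mice received a HuR shRNA virus (HuR knockdown) and 4 humanized and 6 WT mice the control (LacZ) virus. The shRNA was made against human HuR for humanized mice and against mouse HuR for WT mice, so the knockdown viruses differed in sequence. The livers were collected on day 7, once the mice had fasted for 4 h. In bulk liver RNA, fewer cells of a type and less RNA per cell cannot be told apart.

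HuR mRNA was lower in every knockdown liver than in every control. ELAVL1 was 2.37 to 4.05 TPM (transcripts per 1000000) against 4.77 to 6.17 TPM in humanized livers, and Elavl1 was 3.72 to 5.62 TPM against 8.58 to 10.7 TPM in WT livers. The reads counted on human genes ranged from 2671012 to 20306673 per humanized liver, with knockdown liver 4 (20306673) and LacZ liver 2 (19896064) far above the other 6, at no more than 8343931. WT livers held 1423990 reads in LacZ liver 2, 12960601 in knockdown liver 6 and at least 29788087 in the others. Hepatocyte markers summed to 39076 to 88490 TPM in humanized livers and 75032 to 91984 TPM in WT livers, while the human Kupffer cell, endothelial, T cell and red cell markers summed to at most 3.59, 0.556, 0.442 and 0.626 TPM. Human stellate markers summed to 2.73 to 4.80 TPM with knockdown and 5.26 to 7.17 TPM with the control virus, and human cholangiocyte markers to 4.71 to 26.8 and 10.2 to 34.9 TPM. The stellate sums did not overlap between the groups, but most of this gap lay in RELN, at a mean of 0.826 against 3.29 TPM. PDGFRB was 2.17 against 2.34 TPM, and LRAT, DCN and COL1A1 had means under 1 TPM. Of the human markers, EPCAM (cholangiocyte) and RELN (stellate) were called lower and CYP2E1 (hepatocyte) higher with knockdown, with adjusted p-values of 0.424, 0.134 and 0.415 from limma. The part of these cells in the results on human genes was not tested.

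Mitochondrial RNA made up a large part of the human RNA, nearly all of it rRNA, and its share did not separate the groups. Mitochondrial rRNA took 33.6, 27.2, 36.0 and 49.1% of TPM in HuR knockdown livers 1 to 4 and 29.5, 49.1, 29.1 and 34.1% in LacZ livers 1 to 4. The means were 36.5% ± 9.22 (SD, n = 4) and 35.4% ± 9.37 (SD, n = 4), a difference of 1.05 percentage points. The highest share in each group belonged to its most deeply sequenced liver. Without both of these livers the difference was 1.38 points, and leaving out single livers moved it from −3.16 (without knockdown liver 4) to 5.59 points (without LacZ liver 2), with a negative sign also without LacZ liver 1 (−0.946) or 3 (−1.05). A second abundant RNA moved against it: the 7SL RNAs, the RNA part of the signal recognition particle, took 17.8% of TPM in knockdown liver 4 and 18.9% in LacZ liver 2, against 24.9 to 41.5% in the other 6. The part of sequencing depth and of 7SL RNA in the rRNA share was not tested.

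The mitochondrial mRNAs took a far smaller and steadier share. They held 2.18, 1.83, 2.40 and 2.66% of TPM in the knockdown livers and 2.10, 2.56, 2.21 and 2.23% in the LacZ livers. The means were 2.27% ± 0.351 (SD, n = 4) and 2.28% ± 0.196 (SD, n = 4), and the LacZ range lay inside the knockdown range. The tRNAs held only 0.00884 to 0.0348% in knockdown and 0.0103 to 0.0320% in LacZ livers. The rRNAs were 14.9 to 18.5 times as abundant as all mRNAs together in knockdown livers and 13.2 to 19.2 times in LacZ livers.

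**Figure D1:**
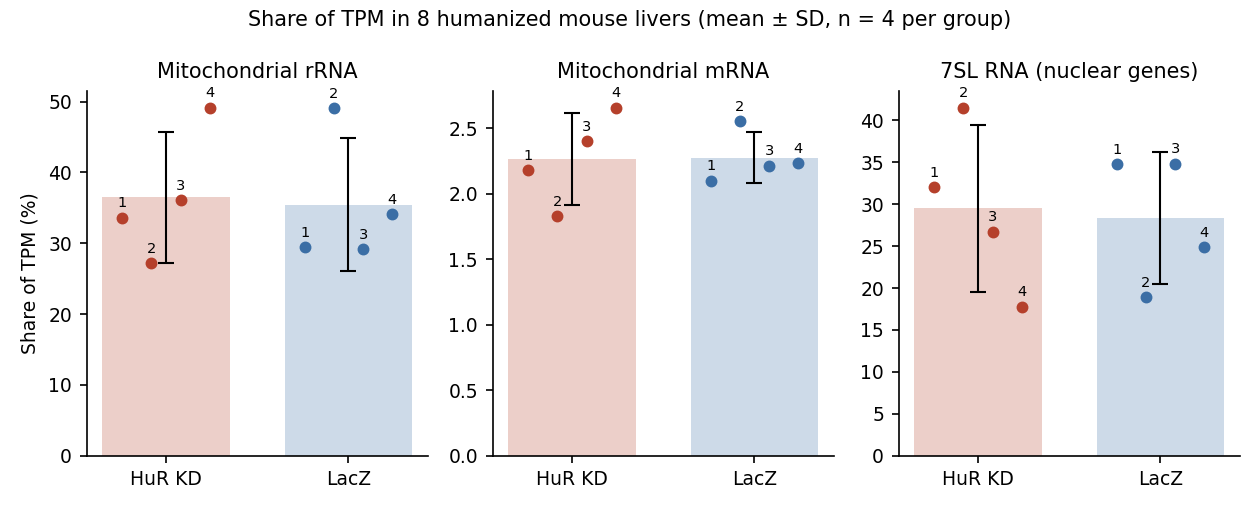
Share of TPM (%) on mitochondrial rRNA, mitochondrial mRNA and 7SL RNA in 8 humanized mouse livers, 1 numbered point per liver, with bars at the mean and error bars of 1 SD for each group of 4. The 2 groups overlap in each panel, and the highest rRNA share of each group, 49.1%, belongs to its most deeply sequenced liver.

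The 2 rRNAs were the most abundant members. MT-RNR2 (ENSG00000210082.2), the large-subunit rRNA, was 250973, 198826, 262872 and 367182 TPM in the knockdown livers and 221016, 370264, 216217 and 251276 TPM in the LacZ livers. MT-RNR1 (ENSG00000211459.2), the small-subunit rRNA, was 84889, 72775, 97579 and 123901 TPM with knockdown and 73518, 120398, 75079 and 89383 TPM with the control virus. For both genes 1 liver of each group stood high and the remaining livers intermingled. On log2(TPM + 1) with limma, MT-RNR2 differed by 0.03 (standard error 0.26, 95% interval −0.56 to 0.62, adjusted p = 0.983) and MT-RNR1 by 0.08 (standard error 0.24, 95% interval −0.45 to 0.62, adjusted p = 0.937).

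Both rRNAs come from the same stretch of the heavy-strand transcript. Their ratio within a liver, like that of any pair of genes, is free of the scaling of that liver. MT-RNR2 was 2.96, 2.73, 2.69 and 2.96 times MT-RNR1 in the knockdown livers and 3.01, 3.08, 2.88 and 2.81 times in the LacZ livers. The log2 ratio was lower by 0.05 with knockdown (difference −0.05, exact permutation test, two-sided, p = 0.286), where 4 livers a group cannot give a p below 0.0286. The ratio varied little among livers in which the rRNA level itself varied widely.

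The mRNAs of complex IV, cytochrome c oxidase, were the most abundant mitochondrial mRNAs in every group. MT-CO3 (ENSG00000198938.2) was 11019, 9817, 12637 and 15203 TPM in the knockdown livers and 11154, 14989, 12337 and 11682 TPM in the LacZ livers. MT-CO1 (ENSG00000198804.2), the catalytic subunit, was 5039, 4143, 5478 and 5372 TPM with knockdown and 4644, 4589, 4682 and 5059 TPM with the control virus. MT-CO2 (ENSG00000198712.1), which takes up electrons from cytochrome c, was 2712, 2129, 2802 and 2915 TPM with knockdown and 2239, 2888, 2126 and 2376 TPM with the control virus. All 3 overlapped between the groups, with log2 differences of −0.05 for MT-CO3 (standard error 0.18), 0.07 for MT-CO1 (standard error 0.14) and 0.13 for MT-CO2 (standard error 0.16). Together they held 86.2 to 88.5% of the mitochondrial mRNA TPM with knockdown and 85.7 to 87.9% with the control virus.

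The 7 mRNAs of complex I, NADH dehydrogenase, ranged widely although 6 of them come from the same strand. MT-ND3 was highest, at 703.5 ± 105.9 TPM (SD, n = 4) in knockdown livers against 784.3 ± 37.15 TPM (SD, n = 4) in LacZ livers, and MT-ND2 was the lowest of the heavy-strand mRNAs, at 72.9 ± 12.95 against 78.01 ± 7.739 TPM. MT-ND4L was 334.5 ± 53.1 against 331.2 ± 8.478 TPM, MT-ND5 was 190.7 ± 40.11 against 215.5 ± 21.73 TPM, and MT-ND1 was 88.31 ± 17.78 against 95.61 ± 18.57 TPM. None of these 5 passed the test. MT-ND4 (ENSG00000198886.2) had the smallest p of all mitochondrial mRNAs, at 444.8, 303.1, 462.0 and 463.3 TPM with knockdown and 503.8, 402.2, 544.9 and 557.0 TPM with the control virus. LacZ liver 2 lay among the knockdown livers, and the difference of −0.27 on the log2 scale did not pass the test (standard error 0.18, 95% interval −0.68 to 0.14, unadjusted p = 0.168 and adjusted p = 0.627 from limma). Without both of the deepest livers, a choice made after seeing the data, it was −0.43 with an unadjusted p = 0.0470 from limma.

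MT-ND4L and MT-ND4 share 1 transcript and overlap by a few bases, as do MT-ATP8 and MT-ATP6. MT-ND4L was 0.786, 0.850, 0.823 and 0.756 times MT-ND4 in the knockdown livers and 0.643, 0.854, 0.605 and 0.589 times in the LacZ livers, so LacZ liver 2 again sat with the knockdown livers. This ratio was examined after its values were seen and was not tested.

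No mRNA of complex III or V passed the test. MT-CYB, cytochrome b and the sole mitochondrial subunit of complex III, was 429.1 ± 61.55 TPM (SD, n = 4) in knockdown livers against 442.4 ± 23.79 TPM (SD, n = 4) in LacZ livers. MT-ATP6, part of the proton channel of ATP synthase, was 444.2 ± 69.49 against 462.1 ± 38.85 TPM, and MT-ATP8, its small partner, was 138.6 ± 24.85 against 133.9 ± 40.41 TPM. The log2 differences were −0.05, −0.07 and 0.08, and the groups of all 3 genes overlapped.

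MT-ND6 is the sole mRNA read from the light strand and was by far the least abundant. It was 11.0, 7.38, 16.04 and 19.92 TPM in the knockdown livers and 11.3, 19.95, 14.4 and 9.34 TPM in the LacZ livers, on 8 to 116 reads a liver, a log2 difference of −0.05 (standard error 0.31, 95% interval −0.75 to 0.65). MT-CYB, its neighbour on the heavy strand, serves as the measure of the other transcript. MT-ND6 was 0.0249, 0.0213, 0.0370 and 0.0403 times MT-CYB with knockdown and 0.0277, 0.0440, 0.0320 and 0.0204 times with the control virus. The groups overlapped over most of their range, and the mean log2 ratios differed by −0.0017 (exact permutation test, two-sided, p = 1). The 2 deepest livers had the highest ratio of their group.

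**Figure D2:**
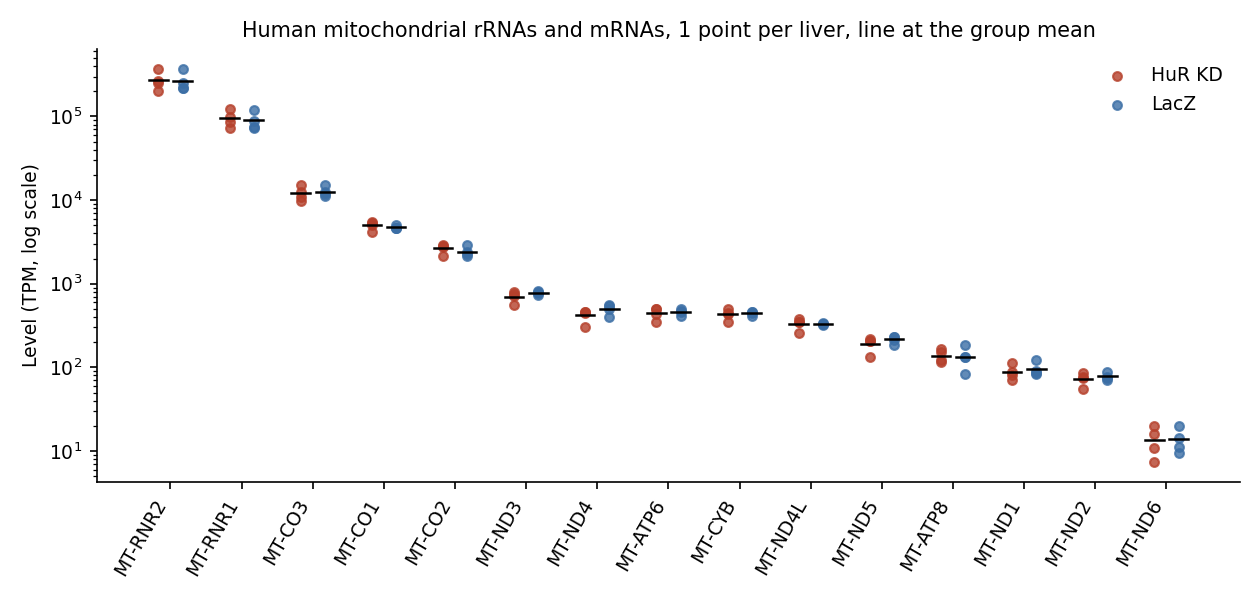
Level of the 2 rRNAs and 13 mRNAs in TPM on a log scale, ordered by their mean over 8 humanized mouse livers, 1 point per liver and a line at each group mean. HuR knockdown and LacZ livers intermingle for every gene, from MT-RNR2 (mean 267328 TPM) to MT-ND6 (mean 13.7 TPM).

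Over all 8 livers the order of the levels was MT-RNR2 (267328 TPM), MT-RNR1 (92190), MT-CO3 (12355), MT-CO1 (4876), MT-CO2 (2523), MT-ND3 (743.9), MT-ND4 (460.1), MT-ATP6 (453.2), MT-CYB (435.7), MT-ND4L (332.8), MT-ND5 (203.1), MT-ATP8 (136.2), MT-ND1 (91.96), MT-ND2 (75.46) and MT-ND6 (13.66). TPM are per length, but the levels of genes with close nuclear copies, such as MT-CO1 and MT-ATP6, and so this order, are uncertain by the reads that the copies took. The first 5 did not overlap their neighbours in this order, and neither did MT-ND4L and MT-ND5 or MT-ND2 and MT-ND6. Neighbours from MT-ND3 to MT-ND4L and from MT-ND5 to MT-ND2 overlapped in their ranges over the livers. Within every liver, MT-ND3 lay above MT-ND4, MT-CYB above MT-ND4L, MT-ND5 above MT-ATP8 and MT-ATP8 above MT-ND1. The last pair was close in LacZ liver 1, at 84.47 and 83.92 TPM. MT-ND4, MT-ATP6 and MT-CYB changed places between livers, as did MT-ND1 and MT-ND2, so the order among these is not fixed by these data. Of the 81 nuclear genes for respiratory chain subunits, 0 had a higher mean than MT-CO2, the highest being ATP5F1B, the catalytic subunit of ATP synthase, at 296.8 TPM.

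In the test over all 12738 human genes, 0 of 13 mitochondrial mRNAs and 0 of 2 rRNAs passed an unadjusted p under 0.05, where 11.5% of all genes passed (3.60% higher and 7.87% lower with knockdown). With limma's voom on reads recovered from the TPM the count was again 0 of 13 and 0 of 2, where 10.4% of all genes passed, with smallest unadjusted p-values of 0.145 and 0.439. After adjustment 0.212% of all human genes passed, and 0 members. The median log2 difference of the 13 mRNAs was −0.05, and that of all genes was −0.05 too. There were 3 mRNAs above 0 and 10 below, a split that became 8 above and 5 below when the libraries were scaled by median-of-ratios factors. The 95% intervals of the mRNAs reached from −0.75 to 0.65 at the widest, both bounds being those of MT-ND6. MT-CYB had the narrowest error, with a standard error of 0.14.

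**Figure D3:**
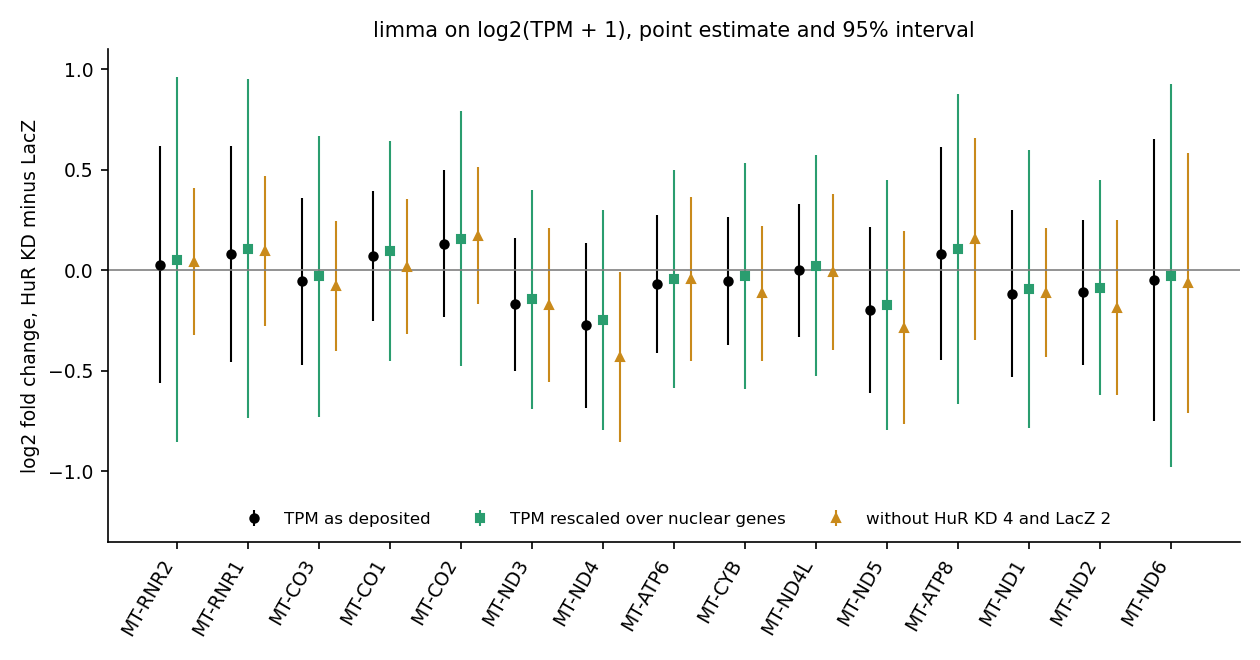
Log2 difference, HuR knockdown minus LacZ, with its 95% interval from limma on log2(TPM + 1), for the human mitochondrial rRNAs and mRNAs, as deposited (black), with TPM rescaled over nuclear genes (green) and without both of the deepest livers (orange). All intervals of the deposited values cross 0, from −0.75 to 0.65 for the mRNAs, and MT-ND4 without the deepest livers, at −0.43, is the sole one drawn that does not.

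The 22 mitochondrial tRNAs, which carry amino acids to the mitochondrial ribosome, were barely covered. At about 70 bases they are shorter than the 75-base reads. Only 668 reads fell on them over the 8 livers, 76.8% of these in the 2 deepest. There were 4 genes (MT-TG, MT-TD, MT-TH and MT-TK) with 0 reads in all livers, 7 with 1 to 9 reads and 11 with at least 10. A gene of 70 bases gains 1.29 to 9.16 TPM per read, depending on the liver, and a count of 0 allows up to 3 reads. Reads on the 14 heavy-strand tRNA genes numbered 538 and those on the 8 light-strand genes 130.

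MT-TF (ENSG00000210049.1), the phenylalanine tRNA at the start of the heavy-strand transcript next to MT-RNR1, took 277 reads, 41.5% of the total. Its reads were 11, 5, 14 and 126 in the knockdown livers and 14, 95, 7 and 5 in the LacZ livers, or 34.1 to 160 TPM against 26.7 to 121.8 TPM. The log2 difference was 0.42 (standard error 0.56, unadjusted p = 0.472 from limma). MT-TT, the threonine tRNA, had 77 reads, of which 26 were in knockdown liver 4 and 46 in LacZ liver 2. MT-TP, the proline tRNA of the light strand, had 46 reads, 25 of them in LacZ liver 2. MT-TL1, a leucine tRNA, had 58 reads and a log2 difference of 1.54 (standard error 0.99, unadjusted p = 0.154 from limma). The smallest p-values, 0.1001 for MT-TE and 0.147 for MT-TS2, rested on 5 and 4 reads. Of the 14 tRNA genes that reached a mean of 1 TPM, 0 passed the unadjusted threshold that 11.5% of all human genes passed.

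**Figure D4:**
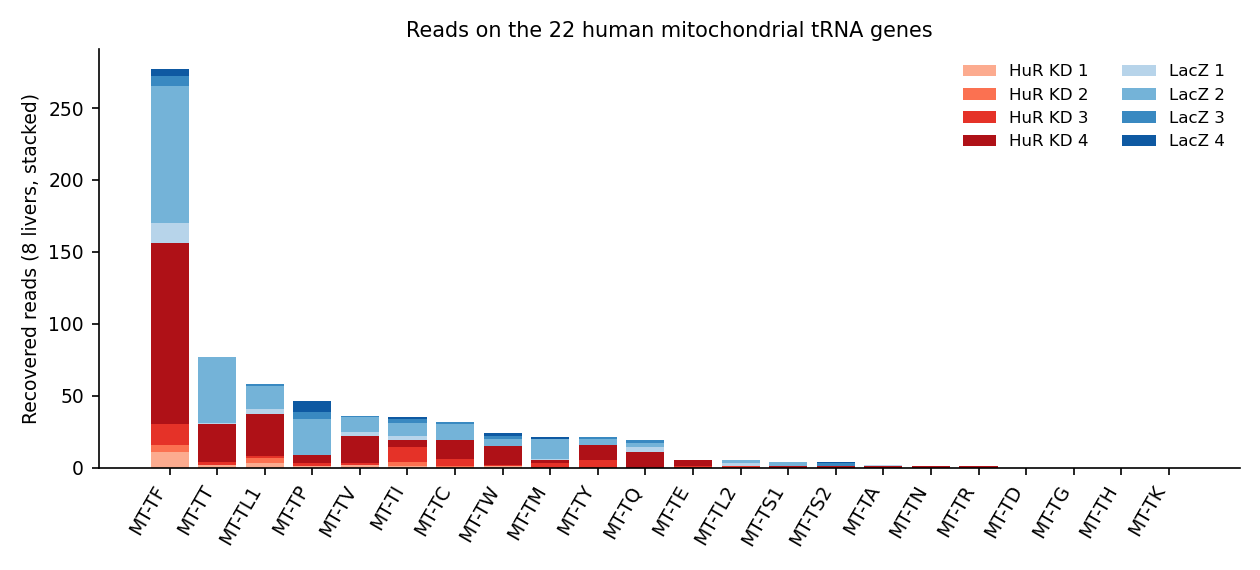
Reads recovered on the 22 human mitochondrial tRNA genes, stacked over 8 livers (knockdown in red, LacZ in blue). MT-TF took 277 of 668 reads, and knockdown liver 4 and LacZ liver 2 hold most of the 4 tallest bars.

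Human mitochondrial genes have many copies in the nuclear genome, and reads that fit both can be assigned to either. Of 407 such human genes listed, 14 reached a mean of 1 TPM. The most abundant were MTCO1P12 (124.9 TPM with knockdown and 123.1 with the control virus), MTATP6P1 (58.6 against 56.6 TPM) and MTRNR2L12 (50.0 against 45.2 TPM). Their log2 differences, 0.01, 0.02 and 0.17, did not pass the test. Among the 14, 0 were called higher and 1, MTCO3P23, lower (unadjusted p = 0.0484 from limma). Of all human genes, 3.60% were called higher and 7.87% lower, and 0 of the 14 passed after adjustment. Whether reads with several matches were counted is not given in the sources used here, so the levels of MT-CO1, MT-ATP6 and other genes with close copies are uncertain by what the copies took.

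Nuclear genes also serve the mitochondrial genome. In humanized livers, of 57 tested genes for transcription, RNA processing, modification and regulation of mitochondrial genes, 1 was called higher and 4 lower, a share near the 11.5% of all genes, with a median log2 difference of −0.04. With median-of-ratios factors or quantile normalization the split turned to 4 higher and 2 lower. GRSF1, which binds G-rich mitochondrial RNA in the granules where it is processed, was 6.63 to 11.0 TPM with knockdown and 10.2 to 12.8 TPM with the control virus (log2 difference −0.44, adjusted p = 0.360 from limma). ESRRA, a nuclear receptor that drives mitochondrial genes, was 31.2 to 43.7 against 18.2 to 36.8 TPM (log2 difference 0.51, adjusted p = 0.420 from limma), and GTPBP3, a tRNA-modifying enzyme, was 1.07 to 2.86 against 2.27 to 3.22 TPM (log2 difference −0.53, adjusted p = 0.424 from limma). The 5 calls became 7 without LacZ liver 2, 1 without LacZ liver 4, 2 without knockdown liver 1, knockdown liver 2, LacZ liver 1 or LacZ liver 3, and 0 when TPM were rescaled without the mitochondrial rRNAs.

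Of the nuclear partners of the mitochondrial subunits, 0 of 75 tested respiratory chain genes were called higher and 6 lower, a share near the 7.87% of all genes called lower, with a median log2 difference of −0.02. The calls were 2 higher and 5 lower with median-of-ratios factors and 2 higher and 6 lower with quantile normalization. COX8A, a small complex IV subunit, was 61.8 to 117.5 TPM with knockdown and 150.2 to 190.2 TPM with the control virus, a log2 difference of −0.93 (standard error 0.21, adjusted p = 0.111 from limma). COX6B1, a complex IV subunit on the outer face of the inner membrane, was 26.7 to 60.3 against 78.3 to 88.1 TPM, a log2 difference of −0.96 (standard error 0.22, adjusted p = 0.121). ATP5MF, a membrane subunit of ATP synthase, was 10.01 to 13.7 against 15.7 to 24.3 TPM, a log2 difference of −0.66 (standard error 0.17, adjusted p = 0.149). These 3 genes were named for the smallest p of the 75, a choice that favours genes whose groups do not overlap, and theirs did not. The groups of MT-CO1, MT-CO2 and MT-CO3, which were not picked by p, did overlap. For that reason the sets cannot be set against each other, and the difference between them was not tested.

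In WT livers all 37 mitochondrial genes were listed at 0 TPM in 12 of 12 libraries, also those that hepatocytes use at high levels. Since every liver cell needs these RNAs, a listed 0 says nothing of their level. No comparison of knockdown with control could therefore be made for mouse members, nor a test of whether human and mouse members differed. Sequence closely related to 9 of the 13 mRNA genes was counted elsewhere, on copies of mitochondrial genes in the mouse nuclear genome. The search described next found no copy of mt-Nd1, mt-Cytb, mt-Nd6 or mt-Atp8, which were listed at 0 as well. That search covered annotated transcripts only and asked for at least 200 aligned bases, so unannotated or shorter copies could not be found. The gene mt-Atp8 (chrM:7766-7969) is itself hardly longer than that limit. Whether the nuclear genome holds copies of these genes therefore stays undecided. The search did not cover the rRNA and tRNA genes. The part of the copies in the zeros was not tested.

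The copies were found by aligning the mouse mitochondrial mRNA genes to all transcripts of GENCODE M21, with at least 95% identity over at least 200 bases. This gave 11 copies, 10 of which reached a mean of 1 TPM. Of these, 7 lie side by side on the minus strand of chromosome 1, in chr1:24611535-24616197 of GRCm38, in the order of the mitochondrial genes themselves, and are annotated as unprocessed pseudogenes. They match mt-Co1, mt-Co2, mt-Atp6, mt-Co3, mt-Nd3, mt-Nd4l and mt-Nd4. Of their stretches of 50 bases, the length of a WT read, 97.07% of those in Gm29216 and 98.99% of those in Gm28438 occur unchanged in the mitochondrial gene, and 100% of those in the other 5. To show how alike they are, 30 bases of 3 pairs are printed, chosen at a differing base for 2 pairs and at the start of a pair without one, each 5′ to 3′ on the strand of the gene, with the differing base in capitals where there is one.
mt-Co1, chrM:6390-6419, plus strand: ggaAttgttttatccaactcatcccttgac
Gm29216, chr1:24616159-24616188, minus strand: ggaTttgttttatccaactcatcccttgac
mt-Nd3, chrM:9459-9488, plus strand: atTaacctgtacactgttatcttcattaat
Gm28438, chr1:24613090-24613119, minus strand: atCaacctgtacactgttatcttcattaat
mt-Co3, chrM:8607-8636, plus strand: atgacccaccaaactcatgcatatcacata
Gm28437, chr1:24613942-24613971, minus strand: atgacccaccaaactcatgcatatcacata
The first pair differs by A1066T and the second by T3C, counted from the first base of the mitochondrial gene. These were the sole differences in the aligned bases of Gm29216 and Gm28438, and Gm28437 had 0 differences over 783 bases. Reads from a mitochondrial mRNA and from its chromosome 1 copy can therefore not be told apart by their sequence over nearly all of the copy.

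The copies were counted at high levels in WT livers, be it with their own reads or with those of the mitochondrial mRNAs. Of these copies, 5 were called higher with HuR knockdown before adjustment. Of 10 tested, 5 were called higher and 0 lower at an unadjusted p under 0.05, where 16% of all 15090 mouse genes were called (9.09% higher and 6.94% lower), and 0 passed after adjustment, which 0.888% of all genes did. With voom on recovered reads 6 were called, where 20% of all genes were. Their median log2 difference was 0.33, against 0.03 for all genes, and the groups of all 10 overlapped. The called copies were Gm29216, Gm28437 and Gm28661 on chromosome 1 and Gm13340 and Gm13341 on chromosome 2. Copies in 1 block are not independent of each other.

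Gm29216 (ENSMUSG00000101249.1), the copy of mt-Co1, had a lowest, median and highest level of 1792, 2254 and 2850 TPM in knockdown livers and 1535, 1863 and 2153 TPM in LacZ livers. Its log2 difference was 0.32 (standard error 0.13, unadjusted p = 0.0269 and adjusted p = 0.242 from limma). Gm28437 (ENSMUSG00000101111.1), the copy of mt-Co3 shown above without a differing base, was 1426, 1702 and 2117 TPM against 1208, 1443 and 1554 TPM. Its log2 difference was 0.30 (standard error 0.10, unadjusted p = 0.0130 and adjusted p = 0.178 from limma). In both, most knockdown livers lay above most LacZ livers and the ranges met in the middle.

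Gm28661, the copy of mt-Co2, was 846.3, 1036 and 1404 TPM with knockdown against 704, 877.3 and 970.8 TPM (log2 difference 0.27, unadjusted p = 0.0438 and adjusted p = 0.296 from limma). Gm10925, the copy of mt-Atp6, was 804, 1036 and 1766 against 622.7, 856.8 and 949.9 TPM and was not called (log2 difference 0.36, unadjusted p = 0.0604 from limma). Gm28438, Gm28439 and Gm10222, the copies of mt-Nd3, mt-Nd4 and mt-Nd4l, were not called either, with log2 differences of 0.21, 0.49 and 0.25. On chromosome 2, Gm13340 (chr2:22588103-22589647), a longer and more diverged copy of mt-Co1 that shares 27.5% of its 50-base stretches with it, differed by 0.48 (adjusted p = 0.218 from limma). Gm13341, a copy of mt-Co2, differed by 0.57 on the log2 scale at a mean of 8.17 TPM. The copies of mt-Nd2 and mt-Nd5, Gm13339 and Gm4076, were low, at a mean of 4.21 and 0.635 TPM.

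The 7 copies on chromosome 1 together took 0.676, 0.906, 0.536, 0.654, 0.638 and 0.643% of TPM in knockdown livers 1 to 6 and 0.608, 0.469, 0.594, 0.461, 0.504 and 0.603% in LacZ livers 1 to 6. The means were 0.675% ± 0.123 (SD, n = 6) and 0.540% ± 0.0693 (SD, n = 6), and 5 of 6 knockdown livers lay above all LacZ livers. The difference of 0.136 percentage points fell to 0.0895 without knockdown liver 2, which held the highest share. The 5 calls also leaned on single livers: there were 2 without knockdown liver 2 and 3 without knockdown liver 4 or LacZ liver 2, 4 or 5. Kupffer cell markers, which mark the macrophages of the liver, summed to 107 to 171 TPM with knockdown and 147 to 209 TPM with the control virus. Of these 6 markers, 3 were called lower, where 6.94% of all mouse genes were. They were Adgre1, Cd68 and Clec4f, with adjusted p-values of 0.257, 0.114 and 0.0613 from limma. Cd163, Csf1r and Marco were not called, with log2 differences of 0.24, −0.22 and −0.12. Red cell markers summed to 167 to 563 against 230 to 354 TPM. The marker sums of all cell types overlapped between the groups. Of single markers, the hepatocyte gene Cyp2e1 was called lower without overlap (7623 to 9185 against 9332 to 11984 TPM). The stellate gene Lrat was called lower too, and the endothelial gene Stab2 and the red cell gene Hba-a1 higher. Adjusted p-values from limma were 0.083, 0.267, 0.302 and 0.251 in this order, and 0 WT markers passed after adjustment. The part of these cells in the result was not tested.

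**Figure D5:**
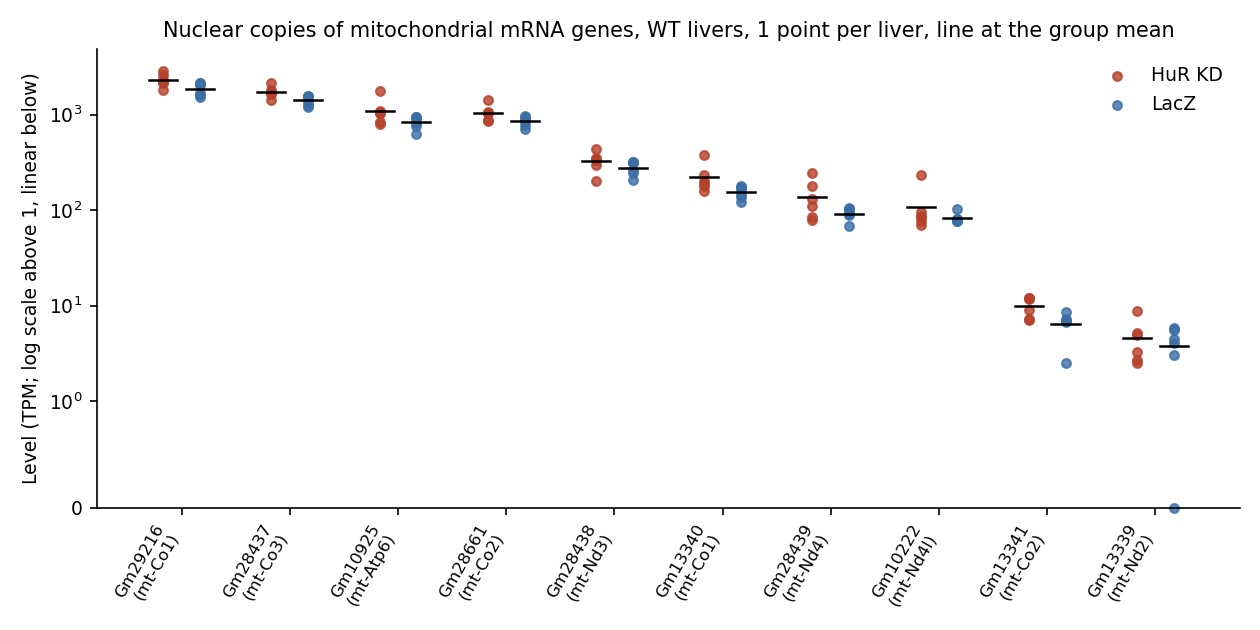
Level in TPM (log scale above 1, linear below) of the copies of mitochondrial mRNA genes in 12 WT livers, 1 point per liver and a line at each group mean. HuR knockdown means lie above LacZ means for all 10 tested copies, and the 2 groups overlap for each of them.

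The order of the levels of these chromosome 1 copies in WT livers matched that of the mitochondrial mRNAs in the humanized livers only in part. The mean over 12 livers was 2082 TPM for the copy of mt-Co1, 1568 for mt-Co3, 963.6 for mt-Atp6, 949.9 for mt-Co2, 301.6 for mt-Nd3, 115 for mt-Nd4 and 95.4 for mt-Nd4l. The copies of complex IV genes led those of complex I genes, and the complex IV mRNAs led in the human data too. There, however, MT-CO3 led MT-CO1, and MT-ATP6 lay well under MT-CO2 and also under MT-ND3. The tables were scaled apart and the copies are partial, so only the order within each can be read.

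In WT livers, of 60 tested genes of mitochondrial gene expression, 13 were called higher and 2 lower, where 9.09% of all mouse genes were called higher and 6.94% lower, with a median log2 difference of 0.08. After adjustment 2 passed, where 0.888% of all genes did. Nsun3, a methyltransferase of the mitochondrial methionine tRNA, fell from 9.48 to 10.7 TPM in LacZ livers to 5.68 to 8.14 TPM with knockdown (log2 difference −0.48, adjusted p = 0.0141 from limma). Mrm3, a methyltransferase of the large mitochondrial rRNA, rose from 7.89 to 10.2 TPM to 10.4 to 14.9 TPM (log2 difference 0.44, adjusted p = 0.0391 from limma). The groups of both genes did not overlap, but both were named for the smallest p of the 60, a choice that favours such genes. Rcc1l, a factor of the mitochondrial ribosome's assembly, differed by 0.31 on the log2 scale (adjusted p = 0.0553 from limma).

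Of 63 tested respiratory chain genes, 18 were called higher and 2 lower, again beside 9.09 and 6.94% of all mouse genes, with a median log2 difference of 0.11 against 0.03 for all genes. By complex, 11 of 37 genes of complex I, 2 of 4 of complex II, 3 of 8 of complex III and 2 of 12 of complex IV were higher, and 0 complex V genes were matched under the symbols of the list. Ndufa5, a subunit of complex I, was 107.3 to 125.7 TPM with knockdown and 90.8 to 100.3 TPM with the control virus (log2 difference 0.27, adjusted p = 0.0433 from limma). Ndufa8, another subunit of complex I, differed by 0.29 (adjusted p = 0.0503 from limma), and Sdhc, a membrane anchor of complex II, by −0.23 (adjusted p = 0.0819 from limma). The 18 higher calls became 11 without knockdown liver 4 or knockdown liver 5, and 10 with median-of-ratios factors.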

How the data were processed

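Liver RNA of 8 humanized and 12 WT mice was sequenced from strand-specific total RNA libraries (TruSeq Stranded Total RNA, reads of 75 and 50 bases). The step that removes rRNA is not given in the sources used here. The deposited values are TPM. To make them, the authors used cutadapt 2.8 for trimming, HISAT2 for alignment (GENCODE human v32 joined with mouse M23 for humanized mice, M23 alone for WT mice) and featureCounts of subread 2.0 for counting. The formula behind the TPM and the handling of reads with several matches are not given in the sources used here. Each library adds up to a fixed total over its table, so a large RNA class lowers the TPM of all others, and the tables were analysed apart.

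Genes that reached a mean of 1 TPM in their table entered limma 3.58.1 (lmFit, eBayes with trend, R 4.3.3) as log2(TPM + 1), which understates changes of low genes. A gene was called at an unadjusted p under 0.05, with the Benjamini-Hochberg adjusted p over the whole table beside it. Log2 ratios of a pair of genes were compared by exact permutation. Sums over members got no test. No label ties the mice of a group to separate cages or litters, and each sample was taken as 1 mouse. Read numbers were recovered from the steps of the TPM for 18702 human and 25110 mouse genes, 100% of those above 0 in 4 or more libraries, to within 0.02 of a read, and set the depth. Both methods were tested on simulated data. The 95% intervals from limma cover the spread between livers, and the allowance of 3 reads for a count of 0 covers counting error only.

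The members and lists were chosen with earlier results of these data known. Named genes are all mRNA and rRNA members, HuR, the 3 most abundant and the 3 smallest-p tRNAs, the 3 smallest-p genes of each nuclear list in each table and the 3 most abundant human nuclear copies. The mouse copies were looked for after the zeros of the WT table were seen, and MTCO3P23, the gene ratios without a test and the sums per complex were chosen after their values were seen. Positions and sequences are from GENCODE M21 on GRCm38. Scripts used Python 3.11.15, numpy 2.4.6, pandas 2.3.3, scipy 1.17.1 and matplotlib 3.10.9.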

Additional observations from a re-analysis of the deposited data

Results flagged for a closer look

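Of 107 groups of 4 or 6 livers checked, 14 held a liver that stood apart from the rest by Dixon's gap test, where chance alone flags about 1 in 20. In HuR knockdown humanized livers these were MT-ND4 in liver 2 (303.1 TPM, others 444.8 to 463.3), ESRRA in liver 3 (43.7, others 31.24 to 32.43), MTCO1P12 in liver 2 (98.91, others 133 to 133.9) and MT-TS2 in liver 4 (1.528, others 0). In LacZ humanized livers they were MT-ND1 in liver 2 (123.3 TPM, others 83.92 to 89.34), MT-CYB in liver 1 (407, others 450.5 to 458.3), COX6B1 in liver 2 (88.07, others 78.33 to 78.57) and MT-TT in liver 2 (63.47, others 0 to 3.896). In WT knockdown livers they were Gm10925 in liver 2 (1766 TPM, others 804 to 1094), Gm13340 in liver 6 (375.8, others 159.3 to 232.3) and Gm10222 in liver 2 (233.6, others 69.7 to 95.04). In WT LacZ livers they were Gm10222 in liver 2 (103.8 TPM, others 76.47 to 81.33), Gm13341 in liver 2 (2.523, others 6.824 to 8.527) and Sdhc in liver 4 (98.46, others 106.7 to 111.3). LacZ liver 2 of the WT mice is the least deeply sequenced library of that table, and LacZ liver 2 of the humanized mice is 1 of the 2 deepest of its table.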

How the results depend on the processing

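Over 20 alternatives, 0 of 13 human mitochondrial mRNAs were called in 19, and 0 of 2 rRNAs in 20. The exception was 1 mRNA (MT-ND4, adjusted p = 0.311 from limma) without both of the deepest livers, where 2011 human genes were called. Among the 14 tRNAs, leaving out single livers gave 0 to 2 calls and leaving out both of the deepest livers 2. Per 100 TPM of nuclear protein-coding genes, another scale, the mRNAs held 7.85 ± 1.26 (SD, n = 4) in knockdown and 7.47 ± 1.46 (SD, n = 4) in LacZ livers. The difference of 0.374 on this scale was smaller than either SD. Of the copies in WT livers, 0 were called after adjustment, 3 after quantile normalization and 2 to 7 when single livers were left out. Genes called over the whole table numbered 1461 (humanized) and 2418 (WT), against 27 and 134 after adjustment. A mean TPM of at least 5 gave 931 in humanized livers, and leaving out single livers gave 1098 to 1958 and 1911 to 2856. Median-of-ratios factors moved the share of higher genes among those called from 31.4 to 49.5% in humanized livers.

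Livers with the same number did not deviate together (correlations of −0.249 to 0.137 in humanized and −0.142 to 0.206 in WT livers), so they share only a number. With the replicate block, 1401 and 2242 genes and 4 copies were called, and the blocked p was 0.375 for MT-RNR2 to MT-RNR1 and 1 for MT-ND6 to MT-CYB. No WT member, WT ratio or interaction alternative could give a value, since the mouse genes are listed at 0.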

Other observations

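Within each humanized liver, the summed TPM of the mitochondrial subunits of a complex can be set against that of its nuclear subunits, which frees the value of the scaling of the liver. The ratio for complex IV was 26.3 to 31.6 with HuR knockdown and 23.6 to 25.8 with the control virus, so the groups did not overlap. The mitochondrial sum overlapped, at 16088 to 23489 TPM against 18036 to 22466 TPM. The nuclear sum was 594 to 785 TPM against 740 to 890 TPM, with COX8A and COX6B1 among its lower genes. Those genes were named above for their small p, so this ratio is not a result separate from theirs. The ratios of the other complexes overlapped between the groups, at 1.36 to 1.80 against 1.55 to 1.87 for complex I, 0.915 to 1.19 against 0.992 to 1.15 for complex III and 0.595 to 0.877 against 0.600 to 0.751 for complex V. These sums were formed after the values were seen and were not tested.

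Deviations from the group mean of knockdown liver 4 and LacZ liver 2, the 2 deepest humanized libraries, correlated at 0.532 across genes, which are not independent replicates. Both shared a high mitochondrial rRNA share, a low 7SL share, a high rRNA to mRNA ratio (18.5 and 19.2) and a high MT-ND6 to MT-CYB ratio.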
